A study of Homo sapiens with 23 samples.

Results

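Trimethylation of histone H3 at lysine 9 (H3K9me3) and at lysine 27 (H3K27me3) was compared in NCI-H23 cells, an established line from a human non-small cell lung cancer. The comparison used 4 chromatin immunoprecipitation sequencing (ChIP-seq) libraries, 2 for each mark, chosen by the target in their labels. The series has 23 samples: 22 libraries with a peak list, for 11 targets with 2 libraries each, and an input library that was not used here. Both marks were pulled down with rabbit polyclonal antibodies from Diagenode. All libraries share the same cell line and culture conditions. The treatment protocol names the BET inhibitor JQ1 and its solvent DMSO, but the sample labels do not assign either to a library, and treatments were not compared. For H3K9me3 replicate 2, numbered by its title, the description gives a different replicate number. The labels do not say whether replicates came from separate cultures, so the p-values measure only the spread between these libraries, which may be technical.

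H3K9me3 is the mark of constitutive heterochromatin. It is laid down by enzymes such as SUV39H1, SUV39H2 and SETDB1 and is bound by HP1 proteins; it is known from pericentromeric repeats, from transposable elements and from the clusters of KRAB zinc finger genes, where TRIM28 recruits SETDB1. H3K27me3 is the mark of facultative repression: Polycomb repressive complex 2 writes it through EZH2 over silent developmental genes and over broad intergenic regions, and it can be removed when a gene is switched on in another cell type. Both marks are associated with silence, while H3K36me3 lies over the bodies of transcribed genes and H3K27ac over active enhancers and promoters.

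On chromosomes 1 to 22 and X, H3K9me3 replicate 1 had 206615 peaks over 125.0 Mb and replicate 2 had 238557 peaks over 171.6 Mb. H3K27me3 replicate 1 had 212956 peaks over 127.1 Mb and replicate 2 had 277378 peaks over 150.0 Mb. The 4 lists thus held 935506 peaks, and the second library of each mark was the longer and wider-reaching one. Read depth is unknown, and a deeper library can give a longer list. Fold enrichment over the peak caller's background, the authors' value, had a median of 3.64 and 3.22 in the H3K9me3 lists and 3.40 and 3.30 in the H3K27me3 lists. An exact two-sided test of 2 libraries against 2 cannot give a p below 0.333. Widths, clustering, correlations and zones are therefore given as values with no test, and tests were made only with limma, which pools the spread across bins or chromosomes.

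Typical listed peaks of the marks had like widths, and the marks parted in the widest peaks. These are widths of peaks in narrowPeak lists and not of marked regions, as a marked region can hold many listed peaks. The longest H3K9me3 domain described below held 484 and 388 H3K9me3 peaks, and the longest H3K27me3 domain 129 and 141 H3K27me3 peaks. The median width was 417 bp and 466 bp in the H3K9me3 lists and 434 bp and 400 bp in the H3K27me3 lists, so the libraries of the marks overlapped. The 99th percentile was 2922 bp and 3813 bp for H3K9me3, above the 2688 bp and 2344 bp for H3K27me3. Such wide peaks were rare in every list. Peaks of at least 10 kb numbered 85 and 271 in the H3K9me3 lists and 7 and 6 in the H3K27me3 lists. Peaks of at least 5 kb held 3.43% and 6.59% of the bases covered by H3K9me3 and 1.17% and 0.674% of those covered by H3K27me3. The libraries of the marks did not overlap in any of these measures of wide peaks.

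Width grew with the strength of a peak up to a −log10 q of 50. In H3K9me3 replicate 2 the median width was 371 bp for peaks with a −log10 q under 5 and 2594 bp for peaks between 20 and 50. In H3K27me3 replicate 1 the same classes had medians of 390 bp and 2943 bp. The strongest class, from 50 on, held between 6 and 129 peaks a list; its median was 2187.5 bp and 4804 bp for H3K9me3 and 3277 bp and 2744.5 bp for H3K27me3, below that of the class before in H3K9me3 replicate 1 and H3K27me3 replicate 2. When only the 10000 strongest peaks of each list were taken, median widths were 1558 bp and 2083 bp for H3K9me3 and 1467 bp and 1341.5 bp for H3K27me3, and the libraries of the marks no longer overlapped. Among these strong peaks, those of at least 5 kb held 20.1% and 34.3% of H3K9me3 bases against 8.01% and 5.99% of H3K27me3 bases.

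The widest peak of H3K9me3 replicate 1 was chr16:32533485-32572359, which is 38875 bp long, and that of replicate 2 was chr19:24467351-24571895, at 104545 bp. Both H3K27me3 libraries had their widest peak at one place, chr7:100675414-100689992 in replicate 1 (14579 bp, fold enrichment 11.4) and chr7:100675341-100690072 in replicate 2 (14732 bp, fold enrichment 10.9). All coordinates are hg19, the build in the submitters' processing notes.

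Chromosome 19 and chromosome 22 carried far more H3K9me3 than H3K27me3. On chromosome 19, H3K9me3 covered 16.5% and 21.2% of the 100 kb bins that hold any peak of the series, and H3K27me3 covered 3.82% and 4.47%. Relative to each library's genome-wide coverage, the difference of H3K9me3 minus H3K27me3 was 2.10 on the log2 scale (SE 0.075, limma adjusted p = 4.70e-29), a ratio of 4.28. On chromosome 22, H3K9me3 covered 5.39% and 7.60% and H3K27me3 1.51% and 1.81%, a log2 difference of 1.87 (limma adjusted p = 3.35e-27). The pair of chromosomes differed in kind: H3K9me3 was high on chromosome 19, at 1.90 and 1.80 on the log2 scale relative to the genome, whereas on chromosome 22 it stood at 0.28 and 0.32 and H3K27me3 was low, at -1.59 and -1.56. On chromosome 22 the log2 difference among the 10000 strongest peaks per list was 0.59 (limma adjusted p = 0.00314). Chromosome 16 came next, with 5.84% and 8.43% covered by H3K9me3 and 3.93% and 5.51% by H3K27me3 (log2 difference 0.51, limma adjusted p = 8.75e-08).

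Chromosomes 20, 11 and 3 leaned most toward H3K27me3. Chromosome 20 had 5.56% and 7.33% covered by H3K9me3 against 9.02% and 10.6% by H3K27me3, a log2 difference of -0.70 (limma adjusted p = 2.40e-11). It was the chromosome most covered by H3K27me3, and its H3K9me3 coverage also lay above the genome-wide level, by 0.32 and 0.26 on the log2 scale. Chromosome 11 had 3.11% and 4.37% against 4.86% and 6.57%, also a log2 difference of -0.70 (limma adjusted p = 2.40e-11). That call was lost with the 10000 strongest peaks of each list, where the log2 difference was -0.07 (limma adjusted p = 0.635). On chromosome 3, H3K9me3 covered 3.24% and 4.66% and H3K27me3 4.90% and 5.92% (log2 difference -0.56, limma adjusted p = 1.20e-08). In all, 7 of 23 chromosomes were higher in H3K9me3 (30.4%) and 6 were higher in H3K27me3 (26.1%) at a limma adjusted p of at most 0.05. The copy number of the line and the share of each chromosome to which reads can be mapped act on both marks, and their part was not tested.

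**Figure D1:**
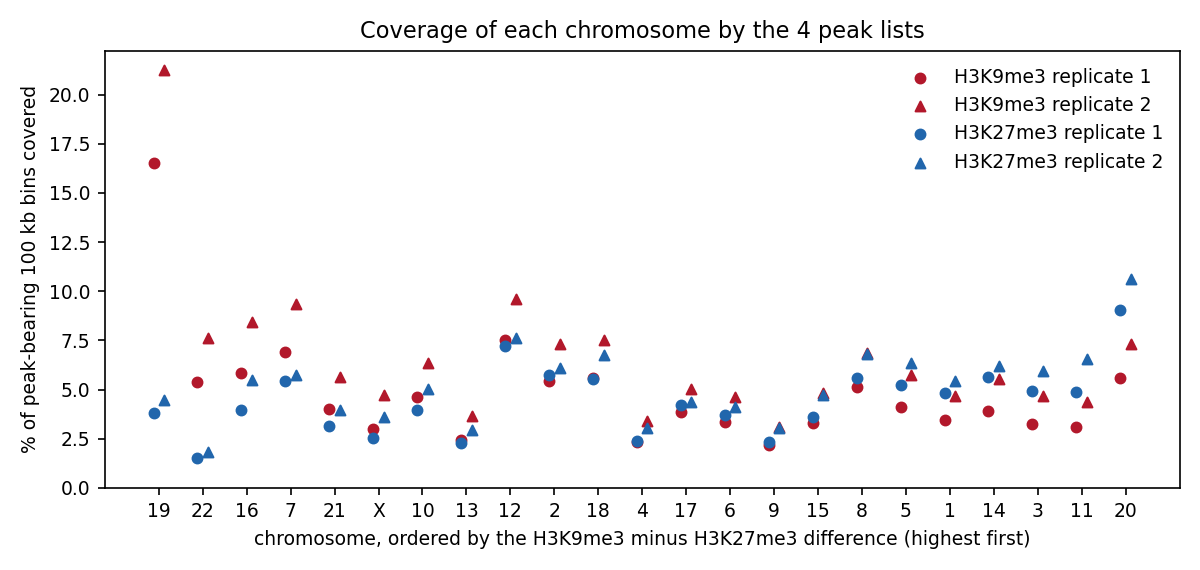
Percent of the peak-bearing 100 kb bins of each chromosome covered by the peaks of each of the 4 libraries (circles replicate 1, triangles replicate 2), with chromosomes ordered by the H3K9me3 minus H3K27me3 difference. Chromosome 19 stands out for H3K9me3 at 16.5% and 21.2%, chromosome 22 has the lowest H3K27me3 at 1.51% and 1.81%, and chromosome 20 the highest at 9.02% and 10.6%.

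Gene families with known links to these marks were counted per chromosome in a gene table of assembly GRCh38.p14, whose coordinates were not used. Zinc finger genes (symbols beginning with ZNF or ZFP), many of them KRAB repressors of transposable elements, numbered 538, of which 255 (47.4%) lie on chromosome 19. Across the 22 autosomes, zinc finger genes per Mb and coverage had a Spearman rho of 0.595 and 0.588 for the H3K9me3 libraries and 0.180 and 0.216 for the H3K27me3 libraries. Without chromosome 19 the values were 0.534 and 0.526 for H3K9me3 and 0.223 and 0.276 for H3K27me3. With the log2 difference between the marks, rho was 0.251, and 0.139 without chromosome 19. Coverage by H3K9me3 had a rho of 0.230 and 0.257 with all protein-coding genes per Mb. Chromosomes share libraries and copy number, and these values are descriptions. Families known as Polycomb targets are small at this scale: the 39 HOX genes are spread over chromosomes 2, 7, 12 and 17, and 55 of the 65 protocadherin genes lie on chromosome 5.

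The genome was then cut into 1 Mb and 100 kb bins. A bin was called dominated by a mark when the percent covered, on the log2 scale with 0.5 percentage points added and each library centred on its median bin, differed by at least 1 at a limma adjusted p of at most 0.05. Of 2830 tested 1 Mb bins, 727 (25.7%) were dominated by H3K9me3 and 738 (26.1%) by H3K27me3, which makes 1465 bins (51.8%) in all. Of 24677 tested 100 kb bins, 7155 (29.0%) were dominated by H3K9me3 and 8913 (36.1%) by H3K27me3, or 65.1% together. Which mark dominated more 100 kb bins depended on the scaling. When libraries were centred on their genome-wide coverage, 10638 bins were dominated by H3K9me3 and 6166 by H3K27me3, so that H3K9me3 took 63.3% of the calls in place of 44.5%, and the median difference over all bins was 0.65 in place of -0.09. At 1 Mb the same change of centring gave 870 and 601 bins, or 59.1% in place of 49.6%. All 7155 H3K9me3 bins were again called for H3K9me3, and all 6166 H3K27me3 bins were among the first 8913. Each centring takes a constant from each library, so the change moved the difference of every bin equally, toward H3K9me3. That no bin changed from one mark to the other follows from a shift of this size and is no check of the calls.

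The balance varied by chromosome. On chromosome 19, 29 of 56 tested 1 Mb bins (51.8%) were dominated by H3K9me3 and 3 (5.36%) by H3K27me3. Chromosome 13, a gene-poor chromosome with low coverage by both marks, had 45.3% of its 1 Mb bins dominated by H3K9me3, although its total coverage gave no call (log2 difference 0.12, limma adjusted p = 0.159). Chromosome 20 had 47.5% of its 1 Mb bins dominated by H3K27me3, and chromosome 11 had 44.3% against 13.7% for H3K9me3.

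**Figure D2:**
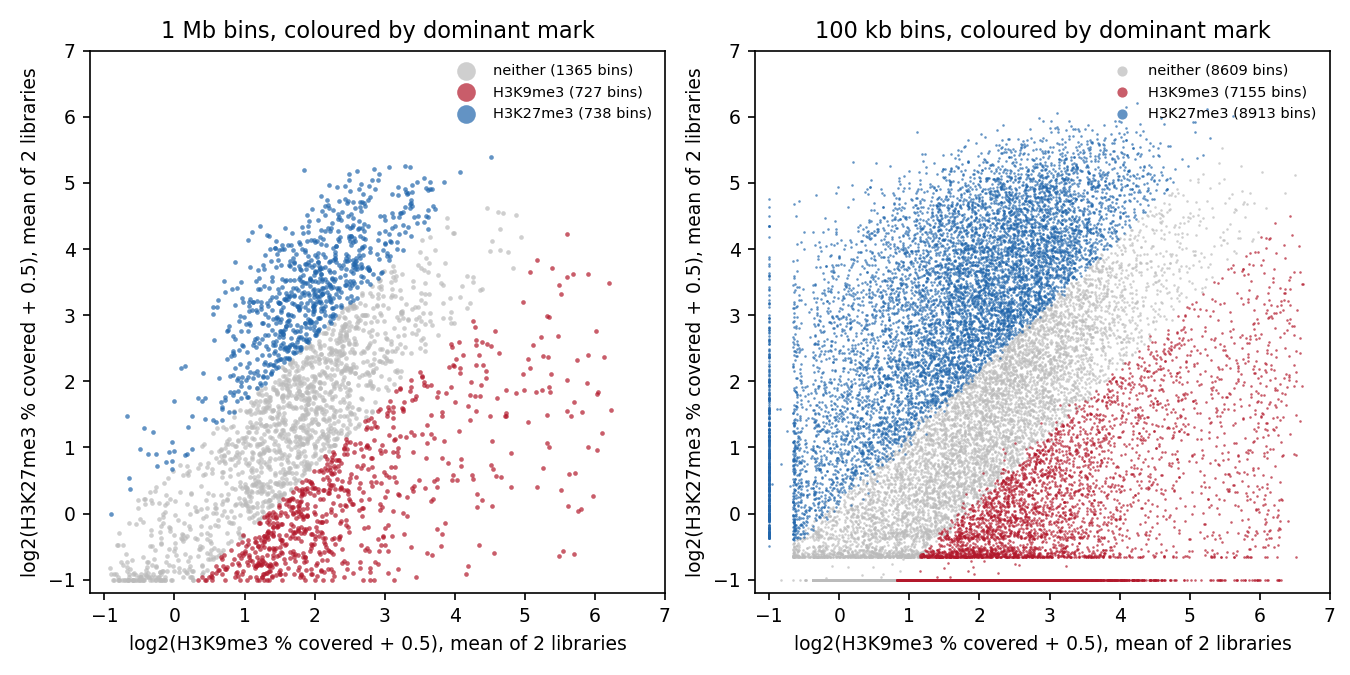
Each point is a tested bin of 1 Mb (left) or 100 kb (right), placed by log2(percent covered + 0.5) of H3K9me3 on the horizontal and H3K27me3 on the vertical axis, each the mean of 2 libraries, and coloured by the mark that dominated it. The 727 and 7155 bins dominated by H3K9me3 reach the highest coverage, and bins at the lower edge have no H3K27me3 peak.

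The most one-sided 1 Mb bins of H3K9me3 held almost no H3K27me3. The largest difference was at chr7:62000001-63000000, close to the centromere, where H3K9me3 covered 45.4% and 57.8% and H3K27me3 0% and 0.305% (log2 difference 6.04, SE 0.18, limma adjusted p = 2.01e-09). Where a mark is near 0 the size of the difference rests on the value added before taking logs: here it was 7.64 with 0.1 and 4.42 with 2 percentage points. None of the 16 other histone lists had a peak in that bin. The bin chr7:68000001-69000000 was alike, with 33.5% and 55.3% against 0% and 0.281% (log2 difference 5.81) and again no peak of another histone mark. In chr22:34000001-35000000 the marks covered 39.9% and 57.5% against 0.374% and 0.795% (log2 difference 5.20). The latter pair lost the call with the 10000 strongest peaks, at log2 differences of 0.45 and 0.23 and limma adjusted p of 0.0999 and 0.466.

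Both H3K9me3 bins named on chromosome 19 lay side by side. The marks covered 53.2% and 71.1% against 0.258% and 1.14% of chr19:22000001-23000000 (log2 difference 5.49, limma adjusted p = 5.08e-09). In chr19:23000001-24000000 the values were 47.0% and 64.1% against 0.117% and 0.979% (log2 difference 5.55, limma adjusted p = 1.03e-08). This last bin also held H3K36me3, the mark of transcribed gene bodies, over 4.84% and 4.40% of its length. The bin beside it held H3K36me3 over 1.44% and 1.33%, and the mean of all tested 1 Mb bins was 7.19% and 6.96%.

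The most one-sided bins of H3K27me3 kept some H3K9me3. The largest difference was at chr14:79000001-80000000, with 2.66% and 3.56% covered by H3K9me3 and 33.0% and 39.1% by H3K27me3 (log2 difference -3.66, SE 0.11, limma adjusted p = 2.01e-09). At chr15:53000001-54000000 the values were 1.51% and 1.80% against 15.4% and 21.8% (log2 difference -3.44, limma adjusted p = 8.23e-09). At chr3:18000001-19000000 they were 1.48% and 2.17% against 16.1% and 23.6% (log2 difference -3.43, limma adjusted p = 6.88e-09). These 3 bins held next to no H3K36me3, at most 0.035% in either library. The H3K9me3 bin chr22:34000001-35000000 likewise held 0% in both.

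In the remaining bins named for H3K27me3 the coverage was lower. The marks covered 1.33% and 1.82% against 13.4% and 20.8% of chr1:175000001-176000000 (log2 difference -3.37, limma adjusted p = 1.22e-08). They covered 0.979% and 1.65% against 10.95% and 15.9% of chr4:82000001-83000000 (log2 difference -3.26, limma adjusted p = 1.22e-08). Neither bin was dominated with the 10000 strongest peaks, where the log2 differences were -0.94 and -0.77. H3K36me3 covered 1.29% and 1.32% of the bin on chromosome 1 and 0.0861% and 0% of that on chromosome 4. In each of the 10 bins the libraries of the marks did not overlap, which follows from choosing the largest differences. Coverage by the weaker mark ran from 0% to 1.14% for H3K27me3 where H3K9me3 dominated and from 0.979% to 3.56% for H3K9me3 where H3K27me3 dominated.

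Runs of neighbouring dominated 100 kb bins reached farther for H3K9me3. A larger share of the H3K27me3 bins lay in runs of some length, by a margin that depended on the centring. The longest H3K9me3 run was chr19:19700001-24700000, 50 bins on the short arm next to the centromere, with a mean of 47.4% and 62.6% covered by H3K9me3 and 0.873% and 1.76% by H3K27me3. The next were chr7:67100001-71700000 (4.6 Mb, 29.3% and 47.5% against 0.273% and 0.616%) and chr5:24600001-28700000 (4.1 Mb, 7.91% and 10.6% against 0.114% and 0.215%). The run on chromosome 5 was thus long but thinly covered.

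The longest H3K27me3 run was chr1:157000001-159800000, 28 bins with 31.4% and 33.8% covered by H3K27me3 and 5.58% and 7.06% by H3K9me3. It was followed by chr5:165000001-167700000 (2.7 Mb, 14.3% and 17.2% against 3.02% and 4.04% for H3K9me3) and chr6:49500001-52200000 (2.7 Mb, 19.2% and 22.2% against 3.75% and 5.17%). H3K9me3 was present in all 3 of these runs at a few percent.

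**Figure D3:**
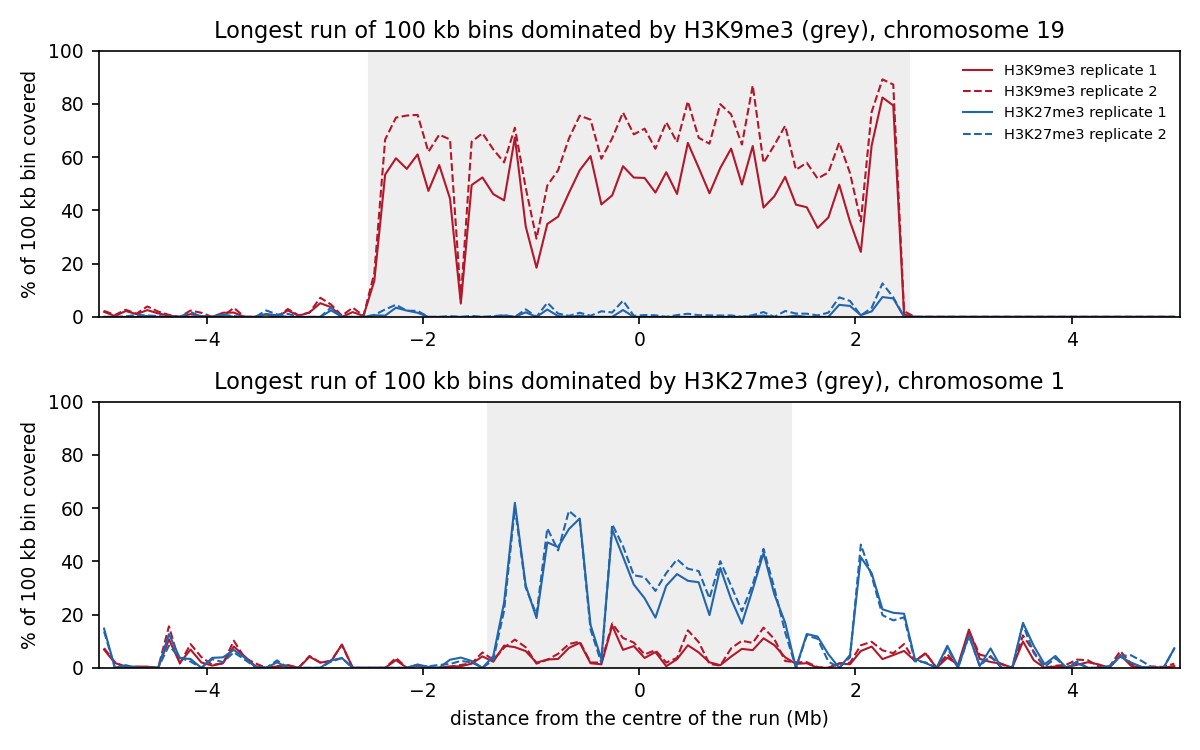
Percent of each 100 kb bin covered by the 4 libraries, by distance in Mb from the centre of the longest run (grey) dominated by H3K9me3, on chromosome 19, and by H3K27me3, on chromosome 1. In the upper run H3K9me3 averages 47.4% and 62.6% with H3K27me3 near 0; in the lower run H3K27me3 averages 31.4% and 33.8% over H3K9me3 at 5.58% and 7.06%.

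Over the genome, the 7155 H3K9me3 bins formed 3098 runs with a mean length of 0.231 Mb, and 1751 of these were single bins. The 8913 H3K27me3 bins formed 2559 runs with a mean of 0.348 Mb, and 1080 were single bins. Runs of at least 0.5 Mb held 38.7% of the H3K9me3 bins and 62.6% of the H3K27me3 bins. With libraries centred on their genome-wide coverage these shares were 48.7% and 53.2%, and the mean run lengths were 0.280 Mb and 0.288 Mb. With quantile normalization of the libraries the shares were 41.5% and 43.4%, and the mean lengths 0.233 Mb and 0.250 Mb. With no centring the shares were 47.1% and 50.1%, and the mean length was 0.272 Mb for both marks. A tested neighbour of an H3K9me3 bin was itself dominated by H3K9me3 in 62.3% of pairs and by H3K27me3 in 6.74%. A tested neighbour of an H3K27me3 bin was dominated by H3K27me3 in 74.7% and by H3K9me3 in 5.16%. Of all tested bins, 29.0% were dominated by H3K9me3 and 36.1% by H3K27me3. Neighbouring bins are not independent, and these shares are descriptions.

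At the level of peaks, those at most 5 kb apart were stitched into domains. At that distance a larger share of H3K9me3 bases lay in very long domains. A larger share of H3K27me3 bases lay in domains of at least 10 kb. Domains of at least 100 kb held 19.8% and 22.1% of H3K9me3 bases and 4.68% and 9.64% of H3K27me3 bases. At lists cut to equal length the values were 19.8%, 21.99%, 4.22% and 5.98%. Domains of at least 10 kb, in contrast, held 46.7% and 51.5% of H3K9me3 bases and 60.2% and 67.5% of H3K27me3 bases. The longest domains measured 972976 bp and 1467138 bp for H3K9me3 and 312843 bp and 440225 bp for H3K27me3. The order at 100 kb rested on the stitching distance. With 20 kb, domains of at least 100 kb held 46.7% and 50.9% of H3K9me3 bases and 65.7% and 73.3% of H3K27me3 bases. The order at 10 kb also rested on it. With 1 kb, domains of at least 10 kb held 16.1% and 20.8% of H3K9me3 bases and 8.28% and 10.1% of H3K27me3 bases. Among the 10000 strongest peaks per list, stitched within 5 kb, these values were 30.4% and 36.3% against 14.4% and 15.4%.

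The gaps between peaks were longer for H3K9me3 at the median and the 75th percentile, and alike at the 25th. The 25th percentile was 377 bp and 337 bp for H3K9me3 and 370 bp and 336 bp for H3K27me3. The median gap was 1553 bp and 1341 bp for H3K9me3 and 1225 bp and 1029 bp for H3K27me3, and the 75th percentile was 9873 bp and 8281 bp against 5178 bp and 3843 bp. Of the 28071 bins of 100 kb with any peak of the series, 14.9% and 11.9% had no H3K9me3 summit, and 37.7% and 33.8% had no H3K27me3 summit. The variance of summits per bin over their mean, which is 1 for random placement, was 15.4 and 14.4 for H3K9me3 and 18.6 and 22.3 for H3K27me3. H3K27me3 was thus the more uneven at this scale, with the libraries of the marks not overlapping. Among the 10000 strongest peaks per list they overlapped, at 3.66 and 3.00 against 3.52 and 4.07.

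Bases covered in both libraries of a mark summed to 91.8 Mb for H3K9me3 and 74.2 Mb for H3K27me3. In the single libraries, domains of at least 100 kb stitched within 5 kb numbered 179 and 210 for H3K9me3 and 96 and 220 for H3K27me3, and these counts overlapped. Stitched in the same way, the bases shared by both libraries gave 158 H3K9me3 domains of at least 100 kb, 40 of them on chromosome 19, and 26 such H3K27me3 domains, 0 of them on chromosome 19. The longest H3K9me3 domain, chr18:75838198-76745560, spans 907.4 kb near the end of the long arm, with 71.1% and 79.2% covered by H3K9me3 and 1.94% and 4.13% by H3K27me3. The next, chr19:56867468-57674796, spans 807.3 kb, also near a chromosome end, with 68.3% and 82.5% against 3.31% and 5.93%. The longest H3K27me3 domain, chr20:54687061-54918810, spans 231.75 kb with 56.4% and 60.8% covered by H3K27me3, and it carried H3K9me3 over 21.1% and 24.4%. The next, chr8:135276479-135465007, spans 188.5 kb with 56.2% and 61.3% against 9.16% and 12.3%.

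Coverage stayed alike over different distances. For bins 0.1 Mb apart, the correlation of log2 coverage was 0.569 and 0.576 for H3K9me3 and 0.708 and 0.733 for H3K27me3. At 1 Mb it was 0.280 and 0.280 against 0.204 and 0.203, and at 10 Mb 0.124 and 0.116 against 0.0664 and 0.0553. The curves crossed between 0.2 and 0.5 Mb, H3K27me3 being the more alike at short range and H3K9me3 at long range. These correlations run over 24788 to 27792 pairs of bins that share a library and its local mappability.

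**Figure D4:**
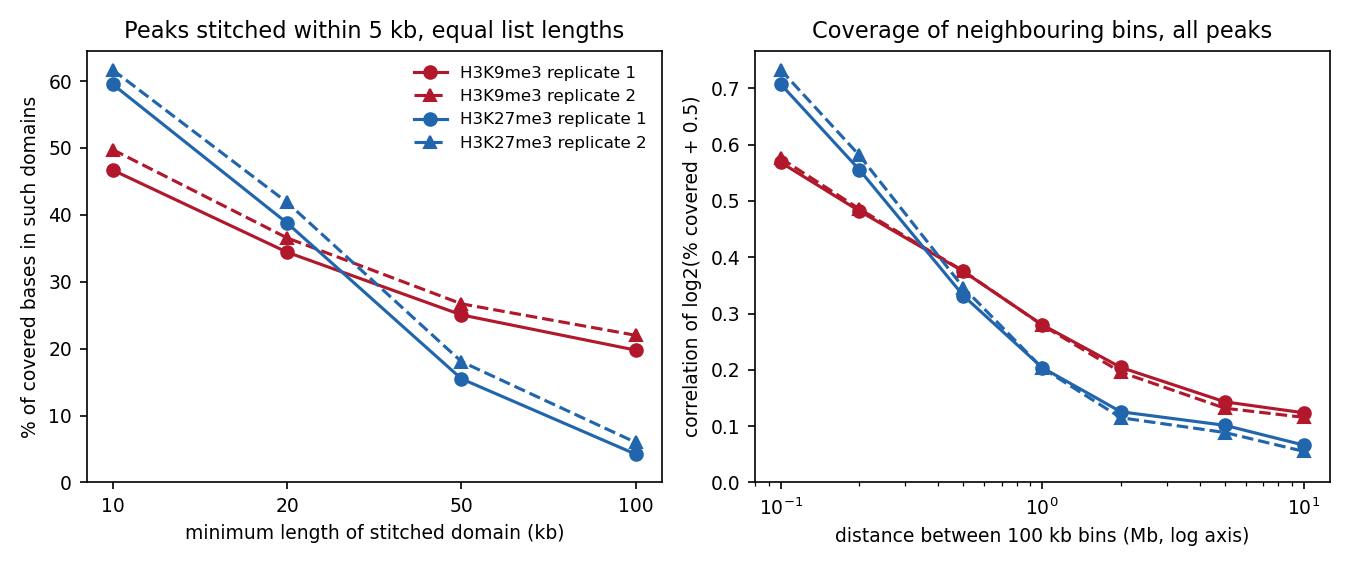
Left, percent of covered bases in domains of at least the length on the horizontal axis, for peaks stitched within 5 kb from lists of equal length; right, correlation of log2(percent covered + 0.5) between 100 kb bins against their distance in Mb (log axis), all peaks, 1 line per library. In both panels H3K27me3 lies above H3K9me3 at the short end and below it at the long end.

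Pooled over chromosomes, H3K9me3 coverage was higher near chromosome ends and beside the longest peakless stretch than elsewhere. Within 5 Mb of the first or last peak of a chromosome, and outside the flanks of that stretch, it covered 8.98% and 11.5% of 2056 bins, against 3.68% and 5.16% of the 23981 bins outside both kinds of zone, ratios of 2.44 and 2.24. H3K27me3 covered 3.77% and 4.39% of the same end bins against 4.54% and 5.38%, ratios of 0.832 and 0.816. Single chromosomes differed: in both libraries of the mark, ends were above the rest on 18 of 23 chromosomes for H3K9me3, the exceptions being 3, 9, 16, 17 and X, and on 6 of 23 for H3K27me3. Within 5 Mb of the longest stretch of a chromosome without a peak in any list, the ratio was 2.42 and 2.28 for H3K9me3 and 1.12 and 1.08 for H3K27me3. In both libraries of the mark these flanks were above the rest on 16 chromosomes for H3K9me3 and 7 for H3K27me3, and below it on 6 and 12. On chromosomes 13, 14, 15 and 22 that stretch was under 1 Mb and is not the centromere. On the 19 chromosomes with a stretch of at least 3 Mb the ratios were 2.54 and 2.39 against 1.18 and 1.13. On 5 chromosomes (13, 14, 15, 21 and 22) the first peak lies over 5 Mb from the start of the sequence, so that its side is no chromosome end; on 14, 15, 21 and 22 that side was counted as flank and on 13 as end. Without these 5, the ratios at ends were 2.52 and 2.30 for H3K9me3 and 0.862 and 0.843 for H3K27me3. The H3K27me3 ratio at chromosome ends was not stable around 1: its mean was 1.11 with the 10000 strongest peaks and 1.03 within 10 Mb.

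Across bins the marks went together more than apart. The mean Spearman rho over the 4 pairs of an H3K9me3 and an H3K27me3 library was 0.470 in 2830 bins of 1 Mb (0.467 to 0.476) and 0.338 in 24677 bins of 100 kb (0.333 to 0.346). Pairs of libraries of 1 mark had values of 0.986 and 0.983 at 1 Mb and 0.948 and 0.946 at 100 kb. The 18 lists of the other targets gave smaller values at 1 Mb, from -0.269 to 0.184. At 100 kb the mean rho between the marks was 0.531 on chromosome 17, 0.507 on chromosome 20 and 0.124 on chromosome X. Bins share libraries, depth, copy number and mappability, whose part in these correlations was not tested.

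The sign of the correlation at finer scale depended on which peaks and bins were counted. Among the 10000 strongest peaks per list, mean rho was 0.243 at 1 Mb and -0.275 at 100 kb, over bins with a peak in at least 2 of the 4 lists. Over all whole bins, those with few or no peaks included, the same strong peaks gave 0.460 and 0.286. With all peaks, 10 kb bins gave -0.138 over bins with a peak in at least 2 lists and 0.383 over all whole bins. By its construction the filter leaves out the bins in which at most 1 list has a peak, that is, bins poor in both marks.

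Many bins were high for both marks. Of the 100 kb bins, 5507 were in the top 25% of both H3K9me3 libraries and 5586 in the top 25% of both H3K27me3 libraries. The 2082 bins in both sets made up 37.8% of the first and 37.3% of the second, 1.67 times the 1247 that independence would give. At 1 Mb, 258 bins were high for both, 39.5% of 653 and 39.6% of 651, or 1.72 times the product of the shares. With the 10000 strongest peaks the ratio at 100 kb was 1.14, with 274 bins.

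Within these 2082 bins the marks also shared bases, though by a smaller ratio to the product of their shares than in all tested bins. H3K9me3 covered 13.0% and 17.0% of them and H3K27me3 20.7% and 22.4%. Both lay on 6.64% to 8.58% of the bases, depending on the pair of libraries, where the product of the shares within each bin gives 2.62% to 3.77%, a ratio of 2.28 to 2.53. In all 24677 tested bins the ratio was 2.91 to 3.39. In the 2082 bins 48.6% to 52.7% of the H3K9me3 bases were also under an H3K27me3 peak. There 30.7% to 39.9% of the H3K27me3 bases were under an H3K9me3 peak. In all tested bins these shares were 22.3% to 25.7% and 21.4% to 30.1%. Bulk ChIP-seq cannot tell apart both marks on 1 chromatin fibre from each mark in other cells.

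The other marks, which played no part in choosing the bins, differed in coverage between the kinds of bin. H3K36me3 covered 10.2% and 9.84% of the 100 kb bins dominated by H3K9me3 and 2.00% and 1.94% of those dominated by H3K27me3, with 7.39% and 7.13% in the bins dominated by neither. A peak of H3K36me3 was present in 49.1% and 48.4% of the H3K9me3 bins and in 15.3% and 15.1% of the H3K27me3 bins. H3K27ac covered 4.96% and 6.32% against 0.982% and 1.12%. H3K4me3, the mark of active promoters, covered 1.46% and 1.46% against 0.874% and 0.873%. H4K5acK8ac, the doubly acetylated H4 tail, covered 3.45% and 3.68% against 0.831% and 1.07%, and BRD2, a bromodomain protein that binds acetylated histones, 0.571% and 0.825% against 0.379% and 0.349%. In each of these comparisons both libraries were higher in the H3K9me3 bins than in the H3K27me3 bins. The bins dominated by neither mark had more H3K4me3 than both kinds, at 1.63% and 1.63%. For H3K27ac, H4K5acK8ac and BRD2 they lay between. At 1 Mb the gap for H3K36me3 was smaller, 7.16% and 6.93% against 4.75% and 4.58%, and bins dominated by neither mark had more than both, at 8.53% and 8.26%. The presence of a peak had the other order there. H3K36me3 had a peak in 67.3% and 65.9% of the H3K9me3 bins of 1 Mb and in 78.6% and 77.8% of the H3K27me3 bins. At 100 kb H4K12ac had a peak in 66.3% and 65.7% of the H3K9me3 bins and in 71.7% and 72.1% of the H3K27me3 bins.

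Most H3K9me3 bins were thinly covered by H3K9me3 itself, and H3K36me3 was highest there. Of the 7155 bins, 3730 (52.1%) had under 5% covered by H3K9me3, and in these H3K36me3 covered 13.1% and 12.6%. H3K9me3 covered 2.39% and 3.36% of these thin bins, and H3K27me3 0.0872% and 0.113%. That is less H3K9me3 than in all tested bins (5.05% and 6.92%) and in the bins dominated by H3K27me3 (3.23% and 4.52%). The thin bins were thus called through their near lack of H3K27me3. At 20% or more covered by H3K9me3 were 913 bins (12.8%), with means of 39.5% and 51.4% for H3K9me3. In these H3K36me3 covered 5.43% and 5.28%, H3K27ac 1.36% and 1.72%, and H3K27me3 2.37% and 3.86%. For H3K36me3 and H3K27ac that is below the mean of all tested bins, which was 6.25% and 6.04% for H3K36me3 and 3.02% and 3.56% for H3K27ac. Not every acetylation mark was lower, as H3K36me3 was, in each denser class. H4K5acK8ac covered 3.63% and 3.90% of the bins under 5%, 4.01% and 4.26% of those from 10 to 20%, and 1.27% and 1.30% of those at 20% or more. Chromosome 19 held 15.3% of these densely covered bins and 1.99% of all tested bins.

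In H3K27me3 bins H3K36me3, H3K27ac and H4K5acK8ac were lower in each denser class. In the 2676 bins (30.0%) with under 5% covered by H3K27me3, H3K36me3 covered 4.57% and 4.46%. In the 1890 bins (21.2%) with 20% or more, it covered 0.249% and 0.241%, and H3K27ac covered 0.152% and 0.258%. H4K5acK8ac went from 1.71% and 2.10% under 5% to 0.212% and 0.305% at 20% or more. Dense H3K27me3 bins were thus almost free of H3K36me3, while dense H3K9me3 bins kept 5.43% and 5.28%. H3K9me3 covered 6.47% and 8.74% of the dense H3K27me3 bins, above its mean in all tested bins of 5.05% and 6.92%.

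**Figure D5:**
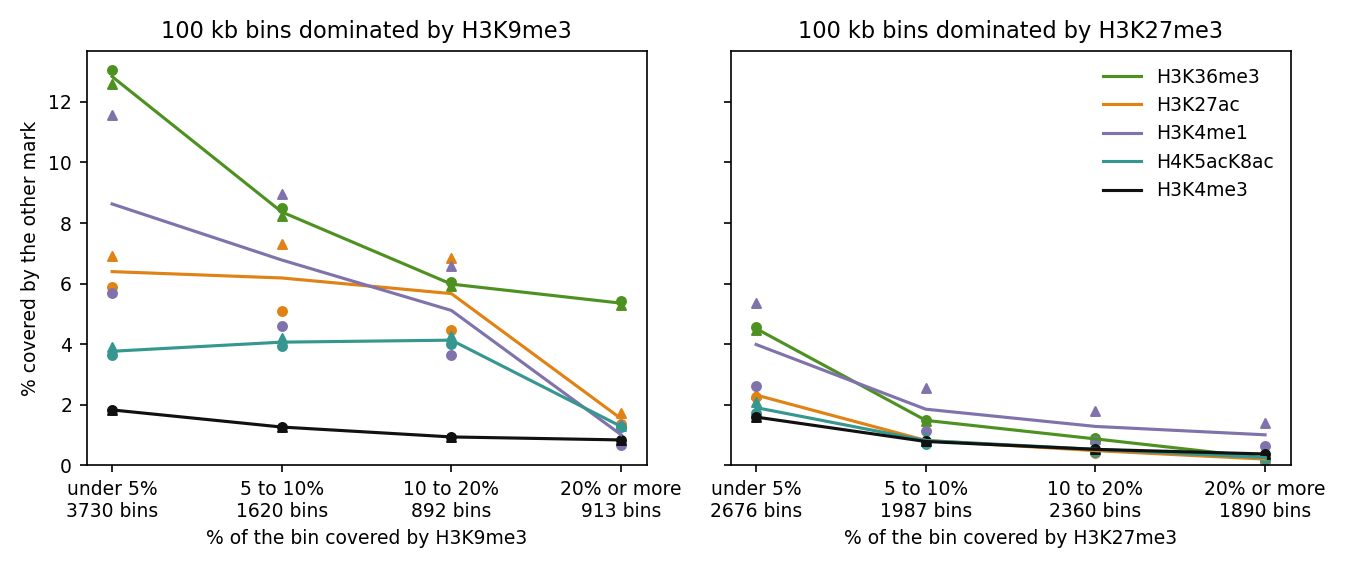
Percent of 100 kb bins covered by 5 other marks, in bins dominated by H3K9me3 (left) and by H3K27me3 (right), grouped by the percent covered by the dominating mark; circles are replicate 1, triangles replicate 2 and lines their mean. H3K36me3 goes from 13.1% and 12.6% to 5.43% and 5.28% on the left and from 4.57% and 4.46% to 0.249% and 0.241% on the right.

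In the active marks, bins high for both repressive marks lay nearer to bins high for H3K27me3 alone than to bins high for H3K9me3 alone. H3K36me3 covered 1.60% and 1.58% of the 2082 bins in the top 25% of all 4 libraries. It covered 5.57% and 5.41% of the 3425 bins high for H3K9me3 alone and 0.698% and 0.667% of the 3504 bins high for H3K27me3 alone. H3K27ac followed the same order, at 0.726% and 0.902%, 3.27% and 4.59%, and 0.310% and 0.445%.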

How the data were processed

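Peak lists of 4 ChIP-seq libraries of NCI-H23 cells were compared, and the 18 lists of the other targets served as readouts. The submitters' processing notes name BWA, an aligner, MACS2, a peak caller, and the build hg19; versions, settings and control are not given in the sources used here. Each library had its own list, in narrowPeak format. In the deposited lists, fold enrichment is a ratio to the local background, significance is given as −log10 p and −log10 q, the score column was not used, and the last deposited column is the summit offset in bp. Strong peaks were ranked by −log10 q. The lists give no read numbers, so depth is unknown and no counting interval can be given.

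The percent of each whole bin covered by peaks was computed per library, within the span of peaks on chromosomes 1 to 22 and X. Peaks of a list were taken not to overlap each other and were not merged for this. The Y chromosome and mitochondrial DNA were left out. Bins tested had a peak in at least 2 of the 4 lists: 2830 of 2917 at 1 Mb and 24677 of 29449 at 100 kb. log2(percent + 0.5) was centred on each library's median bin and fitted with limma 3.58.1 in R 4.3.3 (trended prior, two-sided, Benjamini-Hochberg over all bins). Chromosomes were fitted on log2 percent relative to the genome-wide percent, without a size condition; the pooled spread gave every chromosome the same SE. Other values came from Python 3.11.15, numpy 2.4.6 and pandas 2.3.3, with plots from matplotlib 3.10.9. The members and lists were chosen with earlier results of these data known. The regions named were the 5 dominated 1 Mb bins with the largest difference in each direction (at most 2 per chromosome), the 3 longest runs and 2 longest domains per mark, and the 3 highest and 3 lowest chromosomes. No genome or annotation of hg19 was used, so genes and sequences of these regions are not analysed here.

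On simulated data with 200 changed bins, the 1 Mb fit recovered 93% of bins changed by 1.5 and 100% of those changed by 3 on the log2 scale. The 100 kb fit recovered 2% and 56% at that number. It recovered 86.7% and 98.6% when 60.0% of the bins were changed, with 0.659% of its calls false. These shares describe the simulated data only. In the real data the choice of centring alone moved the share of 100 kb calls for H3K9me3 from 44.5% to 63.3%. The 0.659% is therefore no error rate of the real calls, which was not tested. Alternatives covered the choice of peaks, pseudocount, filter, centring, stitching, zone width and leaving out each library.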

Additional observations from a re-analysis of the deposited data

How the results depend on the processing

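Of 211 recomputed values for the comparisons, 163 stayed within the replicate spread or within 1.5 times the count, 45 moved and 3 reversed. The named bins and chromosomes were picked for the largest differences, so that keeping their calls was likely from the start and is no independent check. Of 228 values for them, 223 kept their call and 5 lost it, all with the 10000 strongest peaks. With these peaks, 269 and 402 bins of 1 Mb and 2334 and 2298 of 100 kb were dominated by H3K9me3 and H3K27me3, and 11 chromosomes were higher in H3K27me3. The correlation was then 0.243 at 1 Mb and -0.275 at 100 kb, or 0.460 and 0.286 over all whole bins. The difference of H3K9me3 minus H3K27me3 in median width was 416 bp in place of 24.5 bp, in bases within peaks of at least 5 kb 20.2 points in place of 4.09, in domains of at least 100 kb 6.36 points in place of 13.8, and in variance over mean -0.46 in place of -5.59. Zone ratios were 4.52 (H3K9me3) and 1.11 (H3K27me3) at ends and 5.01 and 1.56 at flanks, in place of 2.34, 0.824, 2.35 and 1.10, and 274 bins of 100 kb were high for both.

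A pseudocount of 2 left 362 (1 Mb) and 3660 (100 kb) H3K9me3 bins; no filter gave 13936 and no centring 5462 H3K27me3 bins of 100 kb. The mean correlation was 0.515 (1 Mb) and 0.509 (100 kb) over all whole bins, 0.475 at 1 Mb without chromosome 19, 0.319 at 100 kb with lists of equal length, -0.138 in 10 kb bins (0.383 over all whole 10 kb bins) and 0.472 in 5 Mb bins. The difference at 100 kb domains was 1.51 points when stitching within 1 kb and -20.7 points within 20 kb. Within 2 Mb the end ratios were 2.12 and 0.622 and the H3K9me3 flank ratio 3.02; within 10 Mb the H3K27me3 end ratio was 1.03 and the flank ratios 2.03 and 1.24. On chromosomes with a stretch of at least 3 Mb they were 0.846 for H3K27me3 ends and 2.46 and 1.16 for flanks, and without the 5 chromosomes whose first peak is far from the start 0.852, 2.51 and 1.17. In the top 10%, 48 (1 Mb) and 371 (100 kb) bins were high for both. Differences between dominated bins of 1 Mb were 2.38 points for H3K36me3, 2.71 for H3K27ac and 0.350 for H3K4me3, in place of 8.04, 4.59 and 0.591. Leaving out 1 library left 5 to 8 chromosomes higher in H3K9me3 and 6 to 9 higher in H3K27me3. Where only peaks, bins or distances were exchanged, the cause of the change was not tested.

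The labels share replicate numbers across marks, but nothing says that they pair libraries, and with 2 pairs the correlation of deviations (0.315 at 1 Mb, 0.0755 at 100 kb) does not settle it. With the replicate number as a block, 727 and 738 bins of 1 Mb, 7117 and 8877 of 100 kb, and 9 and 9 chromosomes were called for H3K9me3 and H3K27me3, and the same-number correlation was 0.472 and 0.340. The alternatives on no centring, 10 kb and 5 Mb bins, strong peaks over all whole bins, chromosome 19, long stretches, chromosomes with a far first peak, strata of coverage and the plain rule of 2 times without a test were chosen after seeing the data. Lists of unknown depth limit all of these comparisons of coverage.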

Other observations

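H3K9me3 and H3K27me3 stood in unlike relation to the other targets across 24677 bins of 100 kb. Their mean Spearman rho with H3K27ac was -0.128 for H3K9me3 and -0.405 for H3K27me3, and with H3K36me3 -0.140 and -0.395. Across 2830 bins of 1 Mb the values were closer, -0.111 and -0.191 with H3K27ac. With H3K36me3 the order was the other way there, at -0.122 for H3K9me3 and -0.0617 for H3K27me3. The bins share libraries and mappability, and the values are descriptions. A plain rule with no test asked for at least 2 times the relative coverage in both libraries of a mark against both of the other. It gave 5528 H3K9me3 and 7567 H3K27me3 bins of 100 kb, all of them among the limma calls. The rule used the same centred values and at least the same size of difference, so this overlap is no independent check.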
